A study of Mus musculus with 9 samples.

Results

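The Zfp871 knockdown in N2A cells was compared with its own control. The comparison uses 4 of the 9 libraries of the series: 2 after knockdown of Zfp871 and 2 of the control of the same experiment, chosen by their labels alone. N2A is a mouse neuroblastoma cell line. All groups used here were unmodified N2A cultures harvested 48 hours after transfection, which differed in the siRNA pool they received: a SMARTpool against Zfp871, a SMARTpool against Srrm4, or a non-targeting pool as control. The 2 Srrm4 knockdown libraries share the control and serve here to share the estimate of the spread and as the other arm of a direct comparison. That comparison uses the same Zfp871 knockdown libraries, so for genes and exons called against control it is not independent of the call. PolyA RNA was sequenced, and the series title places the experiment in a study of transcription factors and regulated splicing. The 2 libraries of a group are named a and b. No source says whether they came from separate cultures, so p-values measure the spread between these libraries, which may be technical. RNA was taken with either of 2 kinds of kit, and the labels do not say which library had which, so an effect of the kit was not tested.

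Zfp871 encodes a zinc finger protein of the C2H2 type, a family whose members mostly bind DNA and regulate transcription. Srrm4 encodes a splicing factor that promotes inclusion of microexons, very short exons that neurons include and most other cells skip, many of which keep the reading frame and lie in genes for vesicle traffic, the cytoskeleton and synapses. Neuroblastoma cells derive from the sympathetic lineage, and N2A cells include many of these microexons.

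The 4 libraries held 44228278 to 51271599 reads counted in genes and 11288781 to 12835355 reads on cassette exons, and the 10 most abundant genes took 5.84% to 6.73% of the counts. Gene levels are given in CPM, read counts normalised to library size with TMM factors. The median log2 fold change over the 12378 tested genes was -0.01. Markers of glial, epithelial and immune cells were low: the glial list summed to 17.6 to 23.0 CPM in the control and 13.4 to 17.5 in the knockdown libraries, with Olig2, Aqp4 and Slc1a3 at 0 counts in all 6 libraries. The epithelial list summed to 25.1 to 28.7 and 29.1 to 32.5 CPM, with Epcam and Esrp1 at 0. Most of that sum was Grhl2, at 27.12 and 23.99 CPM in the control and 31.55 and 28.46 CPM in the knockdown. The immune list summed to 7.39 to 18.6 and 11.4 to 21.9 CPM, with Ptprc and Cd3e at 0. Most of it was Cd74, at 18.29 and 6.95 CPM in the control and 21.49 and 10.78 CPM in the knockdown. No member of these 3 lists was called. The mesenchymal list was higher, at 711 and 770 CPM in the control and 414 and 391 CPM in the knockdown, mostly from Fn1, the 1 of its 8 tested members that fell, with Thy1, Twist1 and Prrx1 at 0. The muscle list, described below, summed to 252 and 272 CPM in the control and 310 and 327 CPM in the knockdown. The part of other cell types in the results was not tested. The list for sympathetic and neuroblastoma identity summed to 5901 to 6764 CPM in the control.

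Zfp871 (ENSMUSG00000024298) stood at 17.6 and 26.2 CPM in the control libraries a and b and at 7.17 and 5.08 CPM in the knockdown libraries. The groups did not overlap, and the level fell by 1.84 on the log2 scale (SE 0.25, edgeR adjusted p = 0.0271). In the Srrm4 knockdown it was 22.8 and 23.7 CPM, so the drop was found under its own siRNA pool, and the direct comparison gave a log2 difference of -1.93 (edgeR adjusted p = 0.0122). Srrm4 (ENSMUSG00000063919) stood at 66.8 and 96.7 CPM in the control and at 44.9 and 53.7 CPM in the Zfp871 knockdown. Neither knockdown library reached the lower control value, but the log2 fold change of -0.73 (SE 0.19) did not pass the test (edgeR adjusted p = 0.0990). Less cautious tests did call it: the edgeR likelihood ratio test gave an adjusted p of 0.0131 and DESeq2 one of 0.00715, and the authors' deposited table has an FDR of 0.0160. The edgeR quasi-likelihood test with the letters a and b fitted as a block gave an adjusted p of 6.28e-05, but no label ties the letters to pairs. The call thus depends on the test and on the model. Srrm3, a relative of Srrm4 with a similar action on microexons, had 35.6 and 37.5 CPM in the control and 30.8 and 35.1 CPM in the knockdown, a log2 fold change of -0.15 (edgeR adjusted p = 0.466).

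Of the 12378 tested genes, 358 passed the test (edgeR quasi-likelihood test, Benjamini-Hochberg adjusted p under 0.05), and more fell than rose. The 93 genes that rose are 0.751% and the 265 that fell 2.14% of the genes tested, and these 2 shares are the background for every list below. The lists were chosen with earlier results of these data known. A list share above the background therefore describes the list and is not independent support. Among the called genes, 27 rose and 84 fell by at least 1 on the log2 scale. In all 358 the knockdown libraries lay on 1 side of both control libraries, and all 358 had an FDR under 0.05 in the authors' deposited table, which holds 750 such genes among those tested. With groups of 2, an exact permutation test of a single gene cannot give a p-value that passes the threshold, so the calls rest on the spread shared across genes and groups. The calls also rest on having both libraries: 29 genes remained called without control library a, and none when any 1 of the other 3 libraries (control b, knockdown a, knockdown b) was left out, where a lone library is assumed to vary like the others.

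**Figure D1:**
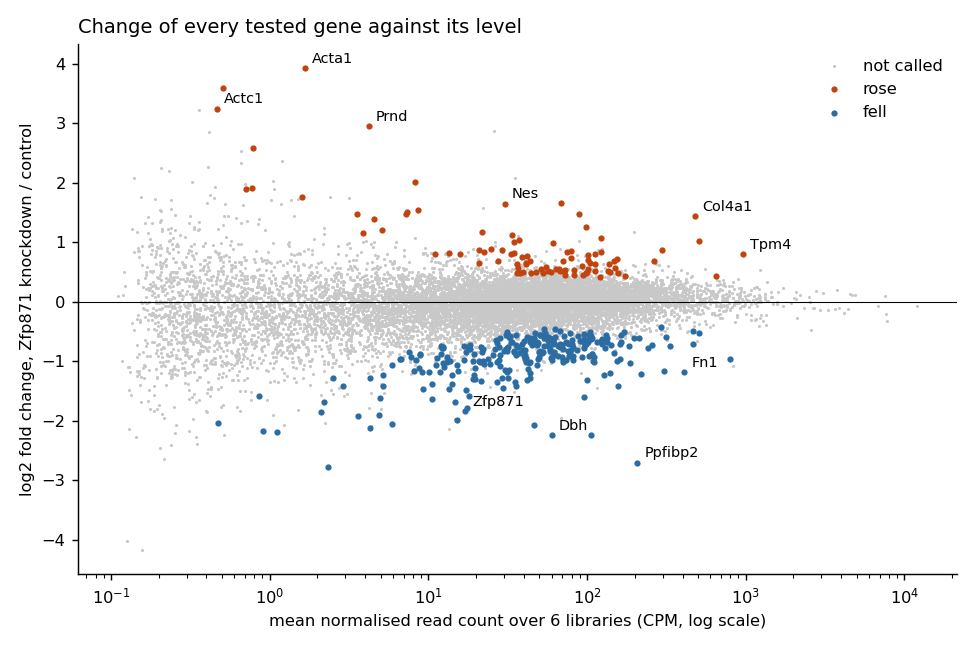
Log2 fold change of Zfp871 knockdown over control (vertical) against the mean level over 6 libraries (horizontal, CPM on a log scale) for 12378 genes. The 265 genes that fell outnumber the 93 that rose, while the highest labelled points, Acta1, Actc1 and Prnd, are rises at low levels.

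Genes of the actin cytoskeleton were among those that rose, with muscle actins in front. Serum response factor (Srf) and its actin-sensing coactivators drive many genes of this kind, including the actins themselves and proteins that bind actin filaments. Of 37 tested members of a list of actin genes and serum response factor targets, 6 rose and none fell, 16.2% against 2.89% of all genes tested in either direction. Actc1, 1 of the 6, had 6 reads in each control library and reached the floor of the filter on low counts in the Zfp871 knockdown libraries only, so it could hardly be tested without being higher; without it 5 of 36 rose. The median log2 fold change of the list was 0.49, and 31 of its 37 members were positive. In 26 members both knockdown libraries lay above both control libraries and in 1 below, where 25.0% of all tested genes lay above and 25.5% below in this way. In these bulk samples a rise in a few cells and a rise in every cell cannot be told apart.

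Acta1, skeletal muscle actin, stood at 0.281 and 0.292 CPM in the control and at 3.69 and 5.12 CPM in the knockdown. This was the largest rise among the named genes, a log2 fold change of 3.93 (SE 0.31, edgeR adjusted p = 0.0192). Actc1, cardiac actin, stood at 0.130 and 0.125 CPM in the control and at 1.25 and 1.21 CPM in the knockdown, a rise of 3.25 on the log2 scale (SE 0.47, edgeR adjusted p = 0.0305). Both are low in absolute terms even after the rise. Pdlim3, a muscle LIM protein that binds alpha-actinin, went from 33.5 and 43.3 CPM to 109 and 133 CPM (log2 fold change 1.66, edgeR adjusted p = 0.0428). Tgfb1i1, a focal adhesion adaptor, went from 85.9 and 106 CPM to 170 and 232 CPM (1.07, edgeR adjusted p = 0.0477). The actin-binding calponin Cnn2 went from 175 and 207 CPM to 334 and 362 CPM (0.87, edgeR adjusted p = 0.0336). The most abundant of the 6 was the tropomyosin Tpm4, at 712 and 794 CPM in the control and 1311 and 1318 CPM in the knockdown (0.80, edgeR adjusted p = 0.0260). None of these 6 groups of values overlapped.

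Further members of the list did not pass the test; those given here, and other members below that did not pass, were chosen after their values were seen unless they were nearest to the threshold in a list with no call. Myl9, a myosin light chain, was at 10.9 and 20.4 CPM in the control and 56.5 and 76.2 CPM in the knockdown (log2 difference 2.08, edgeR adjusted p = 0.0589). Calponin Cnn1 had a log2 fold change of 2.54 (edgeR adjusted p = 0.0762), Tpm1 0.89 (0.0636) and Srf itself 0.88 (0.0762, all from edgeR). Acta2, smooth muscle actin, was at 3.54 and 14.3 CPM in the control and 29.1 and 102 CPM in the knockdown. Its libraries b were higher than its libraries a in both groups, and the log2 fold change of 2.87 had an SE of 1.01 (edgeR adjusted p = 0.178). The cytoplasmic actins moved little, with 0.12 for Actb and -0.33 for Actg1. Outside the list, the actin-severing factor Dstn was singled out after its values were seen: it rose from 360 and 439 CPM to 744 and 874 CPM (1.02, edgeR adjusted p = 0.0355).

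Of 8 tested markers of muscle, 2 rose, which were Acta1 and Actc1 (the latter tested only through the knockdown libraries), and the median was 0.28. Myf5, Myf6, Pax7, Mef2c and Ttn had no count in any of the 6 libraries. In the Srrm4 knockdown, Acta1 stood at 0.287 and 0.318 CPM and Actc1 at 0.0663 and 0.0167 CPM. The direct comparison of the knockdowns called Acta1 (log2 difference 3.85, edgeR adjusted p = 0.00865), Actc1 (4.90, edgeR adjusted p = 0.0109), Pdlim3 (1.37, edgeR adjusted p = 0.0337), Tgfb1i1 (1.56, edgeR adjusted p = 0.0118) and Tpm4 (0.67, edgeR adjusted p = 0.0190). Cnn2 was not called in that test (0.01, edgeR adjusted p = 0.967), being at 313 and 378 CPM in the Srrm4 knockdown. Over all genes the direct comparison called 1374, or 11.1%.

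The start of some of these genes carries the CArG box, the sequence that serum response factor binds. It was searched by that name, with 6 A or T letters between its ends, in the RefSeq promoter windows (GRCm38.p6, 250 bases before to 50 after each gene start). The box reads alike on both strands, so 1 search covers both. Genes were counted once, with a box in any of their windows. A box was found in 1.81% of all 27025 genes with a promoter window and in 149 of 8733 of the tested ones (1.71%). It was found in 8 of 30 of the tested list members with a window (26.7%, in a list built from known targets of this factor). Among genes with a window, 4 of 67 that rose (5.97%) and 4 of 205 that fell (1.95%) had it. The list genes that rose had it in 3 of 5 cases, Actc1 among them. These 3 are part of the 4 among all genes that rose, so the 5.97% is not independent of the list. Those 3 windows are shown with the box in capitals, 5′ to 3′ on the strand of the gene; the box starts 73 bases before the gene start in Acta1, 47 in Actc1 and 56 in Cnn2.
Acta1: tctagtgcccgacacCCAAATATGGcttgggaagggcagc
Actc1: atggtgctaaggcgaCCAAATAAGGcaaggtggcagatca
Cnn2: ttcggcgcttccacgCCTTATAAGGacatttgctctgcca
A match describes the letters of the window and says nothing of binding in these cells.

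**Figure D2:**
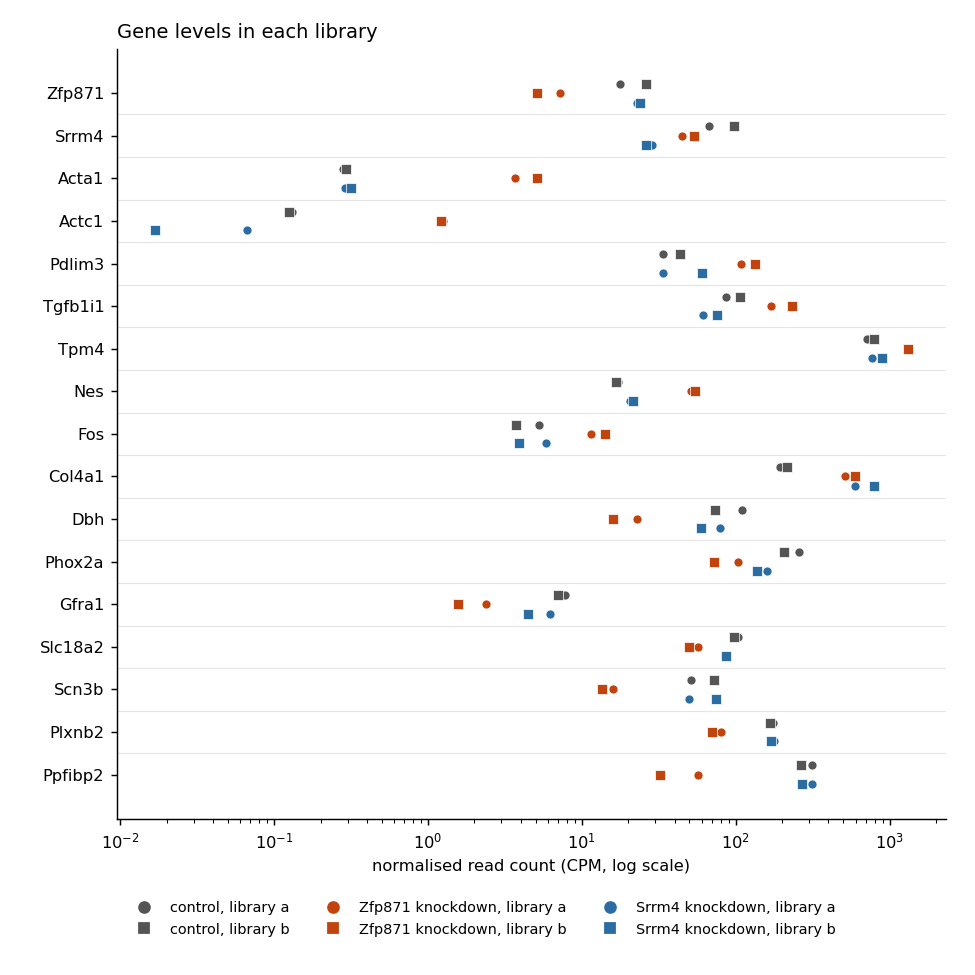
Level of 17 genes in each of 6 libraries (CPM, log scale; circles library a, squares library b). Acta1 and Actc1 stand well above control only in the Zfp871 knockdown in this plot, Zfp871 is low only there, Srrm4 lies between control and its own knockdown, and Col4a1 is high in both knockdowns.

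Other genes that rose had varied roles. Prnd, which encodes a relative of the prion protein, went from 1.01 and 1.46 CPM to 8.56 and 10.7 CPM (log2 fold change 2.96, SE 0.32, edgeR adjusted p = 0.0227). Nes, which encodes nestin, a filament protein found in neural progenitors, went from 17.1 and 16.6 CPM to 51.4 and 54.5 CPM (1.65, SE 0.10, edgeR adjusted p = 0.0156). It was the 1 riser among 17 tested progenitor genes, while Sox9 (-0.85, edgeR adjusted p = 0.0355) and Notch2 (-0.80, edgeR adjusted p = 0.0419) fell. Tmem123 went from 58.0 and 58.4 CPM to 150 and 176 CPM (1.48, edgeR adjusted p = 0.0192), and the homeobox gene Shox2 from 4.30 and 4.44 CPM to 11.6 and 12.8 CPM (1.48, edgeR adjusted p = 0.0227). The signalling kinase gene Irak2 rose by 1.54 (edgeR adjusted p = 0.0352), Amotl2, whose product binds the Hippo pathway effector YAP, by 1.48 (edgeR adjusted p = 0.0476), the deiminase gene Padi4 by 1.77 (edgeR adjusted p = 0.0483) and the growth factor gene Vegfc by 1.20 (edgeR adjusted p = 0.0423).

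Among 42 immediate early and feedback genes of MAP kinase signalling, Fos and Phlda1 rose and Irs2 fell, with a list median of 0.08. Fos, a transcription factor subunit induced by growth signals, was at 5.27 and 3.71 CPM in the control and at 11.4 and 14.1 CPM in the knockdown (a rise of 1.5 on the log2 scale, edgeR adjusted p = 0.0484). Phlda1 stood at 1.18 (edgeR adjusted p = 0.0423), and Irs2, an adaptor of insulin signalling, at -0.68 (edgeR adjusted p = 0.0328). The extracellular matrix list split evenly, with 3 of 32 members up, 3 down and a median of 0.01. The basement membrane genes Col4a1 and Lamb2 and the protease inhibitor gene Timp3 rose. Col4a1 was at 192 and 214 CPM in the control, 512 and 592 CPM in the Zfp871 knockdown and 592 and 793 CPM in the Srrm4 knockdown, and the direct test made no call (log2 difference -0.33, edgeR adjusted p = 0.227). Fn1, fibronectin, fell from 540 and 588 CPM to 264 and 233 CPM (-1.18, edgeR adjusted p = 0.0192), Tgfbi from 15.1 in both control libraries to 5.94 and 4.95 CPM (-1.47, edgeR adjusted p = 0.0227), and Agrn by 0.71 on the log2 scale (edgeR adjusted p = 0.0327). Tgfb2, a ligand that induces matrix genes, fell from 26.7 and 30.6 CPM to 8.51 and 8.14 CPM (-1.78, edgeR adjusted p = 0.0192).

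Genes of the noradrenergic, sympathetic identity of the line fell in part. Of 30 tested members 4 fell and 1 rose, with a median of -0.33 and 14 members (46.7%) below both control libraries against 4 (13.3%) above, where 25.5% and 25.0% of all tested genes lay so. Dbh, the enzyme that turns dopamine into noradrenaline, went from 110 and 72.9 CPM to 22.9 and 15.9 CPM (log2 fold change -2.24, SE 0.27, edgeR adjusted p = 0.0231). Phox2a, a transcription factor of noradrenergic neurons, went from 259 and 206 CPM to 103 and 71.9 CPM (-1.41, edgeR adjusted p = 0.0298). Gfra1, a receptor for the neurotrophic factor GDNF, went from 7.79 and 6.97 CPM to 2.37 and 1.57 CPM (-1.91, edgeR adjusted p = 0.0305), and its partner receptor Ret was at -1.09 and did not pass (edgeR adjusted p = 0.0569). Slc18a2, the vesicular monoamine transporter, went from 103 and 97 CPM to 56.9 and 49.3 CPM (-0.91, edgeR adjusted p = 0.0227). The 4 genes were low in both knockdown libraries and no groups overlapped. The riser was Insm1, a zinc finger factor of neuroendocrine cells, from 66.8 and 62.5 CPM to 112 and 119 CPM (0.84, edgeR adjusted p = 0.0355). Hand2 (-0.33, edgeR adjusted p = 0.122) and Gata3 (-0.12, edgeR adjusted p = 0.530), other transcription factors of the lineage, did not pass. In the direct comparison with the Srrm4 knockdown, Dbh (-1.83, edgeR adjusted p = 0.0170), Gfra1 (-1.44, edgeR adjusted p = 0.0287) and Slc18a2 (-0.69, edgeR adjusted p = 0.0163) were lower in the Zfp871 knockdown and Phox2a was not called (-0.77, edgeR adjusted p = 0.0592).

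Neuronal lists had more members that fell than rose. In the synapse list 3 of 32 fell and none rose (median -0.28), among them the synapsin Syn2 and the complexin Cplx2. Syn2 went from 158 and 141 CPM to 78.7 and 69.9 CPM (log2 fold change -1.01, edgeR adjusted p = 0.0227). Cplx2 went from 105 and 92.2 CPM to 52.4 and 53.9 CPM (-0.89, edgeR adjusted p = 0.0355), above its 35.5 and 27.5 CPM in the Srrm4 knockdown (log2 difference 0.75, edgeR adjusted p = 0.0280). In the cytoskeleton list 4 of 23 fell and none rose (median -0.34): Dpysl5 and Crmp1, which act in axon growth, the kinesin Kif5a and the microtubule regulator Stmn2, with log2 fold changes of -0.93, -0.50, -0.73 and -0.53. In the list of ion channels 2 of 33 fell and none rose (median -0.48). The sodium channel subunit Scn3b went from 51.3 and 72.5 CPM to 16 and 13.5 CPM (-2.07, edgeR adjusted p = 0.0231).

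Among 38 tested axon guidance genes, 5 fell and none rose, with a median of -0.38. The plexins Plxnb2 and Plxnd1, receptors for semaphorins, went from 174 and 168 CPM to 79.8 and 69.9 CPM (log2 fold change -1.19, edgeR adjusted p = 0.0192) and from 115 and 142 CPM to 65.0 and 64.5 CPM (-0.99, edgeR adjusted p = 0.0228). Both were lower than in the Srrm4 knockdown too, by log2 differences of -1.22 (edgeR adjusted p = 0.00865) and -1.03 (edgeR adjusted p = 0.0109). The coreceptor Nrp2 stood at -0.75 (edgeR adjusted p = 0.0443), and the adhesion molecules L1cam and Nrcam at -0.74 (edgeR adjusted p = 0.0239) and -1.19 (edgeR adjusted p = 0.0275). The groups of libraries did not overlap in 19 synapse genes lower and 2 higher of 32, in 17 lower and 1 higher of 23 cytoskeleton genes, in 20 lower and 1 higher of 33 channel genes and in 18 lower and 2 higher of 38 guidance genes. These are 59.4%, 73.9%, 60.6% and 47.4% lower, beside 25.5% of all tested genes.

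**Figure D3:**
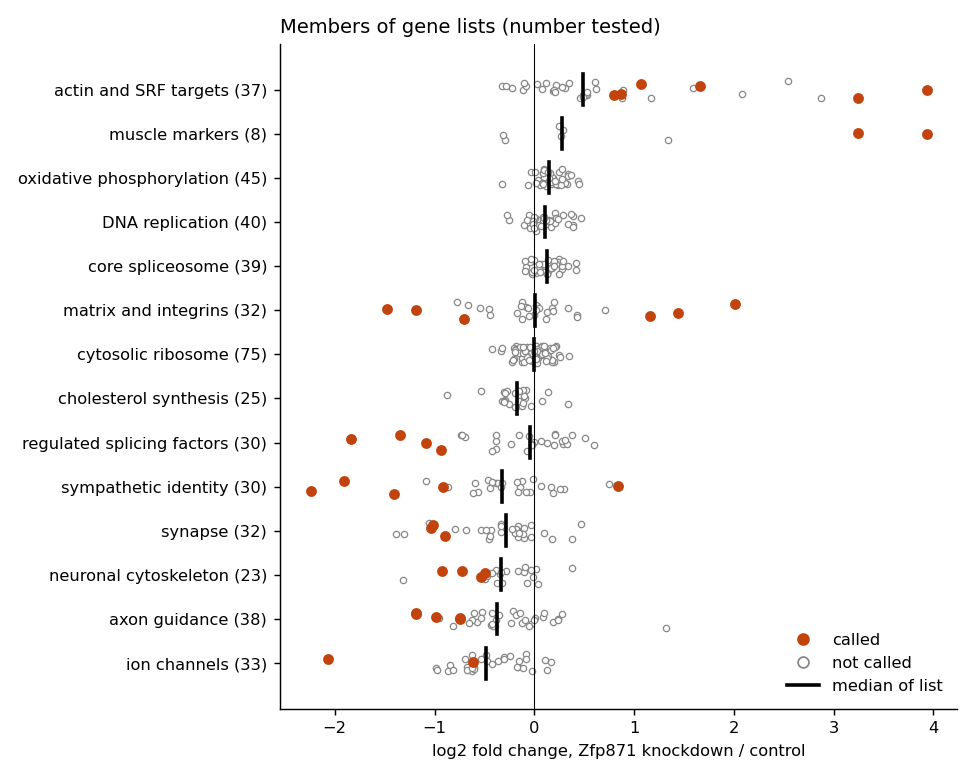
Log2 fold change (horizontal) of the tested members of 14 gene lists, 1 point per gene, filled where called, with the median of each list as a bar. The actin list is shifted to the right (median 0.49) and the channel list to the left (median -0.48), while the ribosomal genes are centred near 0.

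The largest falls outside these lists were in genes of unrelated roles. Ppfibp2, a liprin, went from 311 and 265 CPM to 56.4 and 32.0 CPM (a change of -2.71 on the log2 scale with SE 0.27, edgeR adjusted p = 0.0223). Nwd1 went from 2.94 and 3.38 CPM to 0.603 and 0.318 CPM (-2.78, edgeR adjusted p = 0.0231). Neither was lower in the Srrm4 knockdown, where Ppfibp2 stood at 313 and 271 CPM and Nwd1 at 3.38 and 3.41 CPM. Pde9a, which breaks down cyclic GMP, went from 8.16 and 9.33 CPM to 2.01 in both knockdown libraries (-2.12, edgeR adjusted p = 0.0223) and was as low in the Srrm4 knockdown, at 2.39 and 1.99 CPM. Papss2, which makes the sulphate donor of the cell, stood at -2.19 (edgeR adjusted p = 0.0477), the ganglioside sialyltransferase St6galnac5 at -2.06 (edgeR adjusted p = 0.0277), the orphan receptor Gpr22 at -1.99 (edgeR adjusted p = 0.0432) and the germ cell RNA-binding protein Dazl at -1.92 (edgeR adjusted p = 0.0231). Hpcal4, a calcium sensor, stood at -1.86 (edgeR adjusted p = 0.0481), Igdcc4 at -1.68 (edgeR adjusted p = 0.0354) and Nos1, neuronal nitric oxide synthase, at -1.64 (edgeR adjusted p = 0.0227).

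In the p53 list Bak1, a pore-forming death factor, rose by 0.99, and Apaf1, which activates caspases, and Ccng1 fell by 1.05 and 1.46 on the log2 scale, among 21 tested. The interferon list of 25 had Irak2 up and Ifi35 down by 1.09, and the unfolded protein list of 35 had Atf5 up by 0.55. No member passed the edgeR test among 25 genes of cholesterol synthesis (median -0.18), 40 of DNA replication (0.11), 30 of mitosis (0.10), 31 of glycolysis and hypoxia (-0.06), 45 subunits of oxidative phosphorylation (0.15) or 75 cytosolic ribosomal proteins (0.00). None passed among 35 SR and hnRNP genes (0.08), 39 of the core spliceosome (0.13) or 27 entries of corepressors of zinc finger proteins (0.03). Among the 347 members of these 9 lists, 42 had an unadjusted p under 0.05 in the edgeR quasi-likelihood test, and DESeq2 called 24 and the edgeR likelihood ratio test 4. A missed threshold does not show that a gene kept its level. In the oxidative phosphorylation list 42 of 45 values were positive, with Ndufa4 at 0.34 (edgeR adjusted p = 0.0795) and Ndufv2 at 0.44 (edgeR adjusted p = 0.0927) nearest to the threshold. In the cholesterol list 22 of 25 were negative, with Srebf1, its transcription factor, at -0.54 (edgeR adjusted p = 0.0608).

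Transcripts of some splicing regulators fell. Of 30 tested tissue-regulated splicing factors, a list that contains the target Zfp871, 4 fell and none rose, and the median was -0.04. Beside Zfp871 these were Rbms3, Celf4 and Nova1, which encode RNA-binding proteins, the last 2 being neuronal. Rbms3 went from 53.5 and 64.9 CPM to 24.9 and 21.6 CPM (log2 fold change -1.35, edgeR adjusted p = 0.0223) and stood as low in the Srrm4 knockdown (22.8 and 22.2 CPM). Celf4 went from 45.8 and 38.6 CPM to 21.8 and 17.9 CPM (-1.09, edgeR adjusted p = 0.0407), and Nova1 from 47.8 and 58.5 CPM to 25.8 and 29.7 CPM (-0.94, edgeR adjusted p = 0.0439). Ptbp2, the neuronal polypyrimidine tract binding protein, was at 147 and 171 CPM in the control and 92.1 and 98.8 CPM in the knockdown (-0.73, edgeR adjusted p = 0.0786), and its non-neuronal relative Ptbp1 at 787 and 738 CPM and 909 and 1009 CPM (0.33, edgeR adjusted p = 0.123). Neither passed, and neither overlapped between the groups.

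Microexon inclusion was lower in both knockdown libraries. A choice of the microexons described below, among those whose sequence could be matched and not ranked by size of change, is printed first, with the exon in capitals between the last 15 bases of the exon before it and the first 15 of the exon after it, 5′ to 3′. They were read from GENCODE M21 transcripts by gene, exon length and the lengths of both neighbouring introns, and the positions are those of the deposited splicing table in mm9. All 10 have a length that 3 divides. L1cam and Pacsin2 were singled out after their values were seen.
Clasp2 (24 nt, chr9:113787868-113787891, plus strand): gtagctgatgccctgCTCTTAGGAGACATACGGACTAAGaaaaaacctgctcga
Dock4 (27 nt, chr12:41521184-41521210, plus strand): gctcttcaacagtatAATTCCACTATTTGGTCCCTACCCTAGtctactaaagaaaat
Fbxo25 (27 nt, chr8:13938922-13938948, plus strand): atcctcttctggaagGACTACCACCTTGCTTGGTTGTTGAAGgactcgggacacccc
Eif4g1 (21 nt, chr16:20674859-20674879, plus strand): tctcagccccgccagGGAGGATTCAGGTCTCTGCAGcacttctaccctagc
Ergic3 (15 nt, chr2:155841113-155841127, plus strand): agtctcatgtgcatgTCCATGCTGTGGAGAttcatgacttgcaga
Vav2 (15 nt, chr2:27140359-27140373, minus strand): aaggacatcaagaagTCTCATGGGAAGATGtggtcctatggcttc
L1cam (12 nt, chrX:71100991-71101002, minus strand): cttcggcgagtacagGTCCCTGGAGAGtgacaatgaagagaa
Psap (9 nt, chr10:59760285-59760293, plus strand): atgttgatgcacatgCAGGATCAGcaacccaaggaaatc
Myo5a (9 nt, chr9:75035329-75035337, plus strand): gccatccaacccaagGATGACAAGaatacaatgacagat
Pacsin2 (6 nt, chr15:83214053-83214058, minus strand): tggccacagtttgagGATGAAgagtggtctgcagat

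Inclusion is given as percent spliced in (PSI), the share of reads that include the exon. Of the 20266 cassette exons tested, none was called by the edgeR quasi-likelihood test at an adjusted p under 0.05 and a difference of at least 10 points (a share of 0), and the smallest adjusted p was 0.182. At an unadjusted p under 0.05 the test gave 946 exons, and limma on logit PSI called none. The edgeR likelihood ratio test, which takes the fitted spread as known and is the less cautious of the tests, called 166 exons lower (0.819%) and 19 higher (0.0938%). All exon calls below come from that test and would not stand under the others. Without knockdown library b it called 86 lower and 13 higher, and without each of the other 3 libraries 138 to 154 lower and 13 to 31 higher. The authors' deposited table marks 251 of the tested exons as differential, of which 223 were lower here, and these include 136 of the 166 and 14 of the 19.

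The share of exons called lower was highest among the shortest exons. Of 510 tested microexons of 3 to 27 nt, 75 were called lower (14.7%) and none higher, against 91 lower (0.461%) and 19 higher (0.0962%) of 19756 longer exons. The median PSI of the 510 was 47.7% and 53.2% in the control libraries and 31.3% and 30.6% in the knockdown libraries, with no overlap. Their mean PSI moved less, from 49.3% and 50.8% to 43.9% and 43.3%. Their median difference was -3.03 points, against -0.24 points for longer exons, and 77.6% against 54.2% lay below control. In 268 microexons (52.5%) the knockdown libraries were both under the lower control value and in 28 (5.49%) both over the higher one, where over all tested exons these shares were 19.4% and 11.8%. The share called lower went from 17.1% at 3 to 15 nt and 13.0% at 16 to 27 nt to 2.04% at 28 to 51 nt, 0.523% at 52 to 100 nt, 0.226% over 100 to 150 nt and 0.193% above that. Of the 75 called microexons 93.3% had a length divisible by 3, against 75.9% of all tested microexons. Among tested microexons with a mean PSI of 20% to 80%, which hold 52 of the 75, that share was 84.6%. Microexons with a mean PSI of 20% to 80% over the 6 libraries had a median difference of -14.7 points (136 exons, 52 called lower), and longer exons in that range -1.78 points (2210 exons, 55 called lower). Microexons with a mean under 20% had -1.55 points (210 exons, 14 called lower) and those over 80% had -2.05 points (164 exons, 9 called lower). This mean includes the knockdown libraries, so the difference itself helps set the class.

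**Figure D4:**
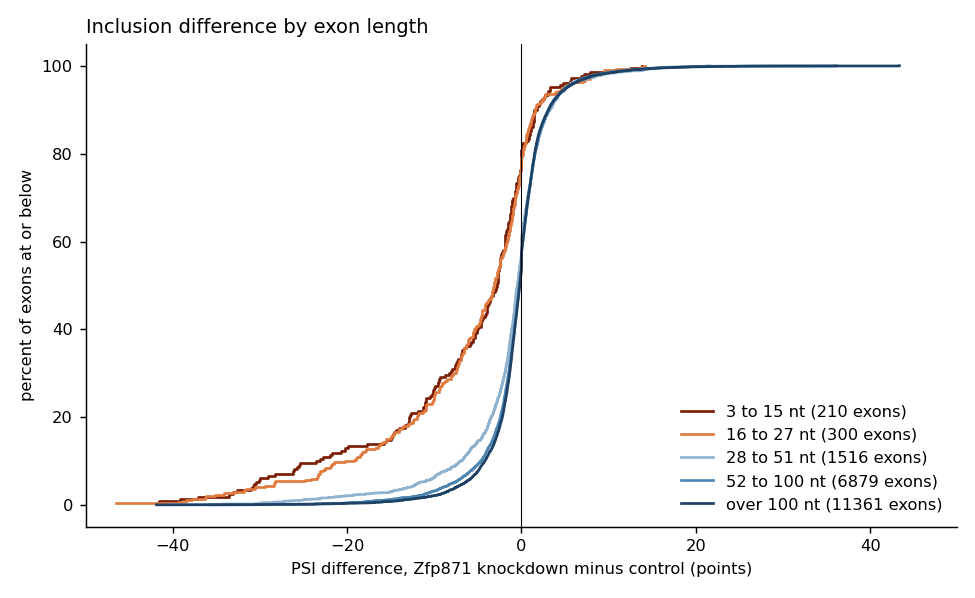
Cumulative share of tested cassette exons (vertical) with a PSI difference, Zfp871 knockdown minus control, at or below the value on the horizontal axis, for 5 length classes. The 2 microexon curves (210 and 300 exons) run to the left of the 3 classes of longer exons, with medians of -2.80 and -3.13 points.

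The 24-nt exon of Clasp2, a protein of growing microtubule ends, was included at 75.5% and 80.5% in the control and at 25% and 38% in the knockdown, that is, the mean went from 78.0% ± 3.48 to 31.5% ± 9.19 (SD, n = 2; edgeR likelihood ratio test adjusted p = 1.57e-07). Snap91, which helps assemble clathrin coats, had a 6-nt exon that went from 69.7% and 75.1% to 33% and 28.6% (edgeR likelihood ratio test adjusted p = 1.49e-09). All 12 tested exons of Snap91 had a lower mean PSI than in the control, and neighbouring exons of 1 gene share reads. The 24-nt exon of Sh3glb1, endophilin B1, went from 67.5% and 67.3% to 31.5% and 26.3%, and the 27-nt exon of Dock4, which activates the small GTPase Rac, from 79.8% and 85.2% to 43.6% and 49.1%. The 27-nt exon of Fbxo25, an F-box protein, went from 53.1% and 51.2% to 18.3% and 13.5% (edgeR likelihood ratio test adjusted p = 7.24e-21). In each exon given with its values here the groups did not overlap.

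The 15-nt exon of Ergic3, which cycles between the endoplasmic reticulum and the Golgi, went from 43.1% and 47.6% to 17.4% and 13.2% (edgeR likelihood ratio test adjusted p = 9.55e-10), and the 9-nt exon of Psap, the precursor of the lysosomal saposins, from 51.6% and 62.4% to 25% and 28%. The 21-nt exon of Eif4g1, the scaffold of translation initiation, went from 48.1% and 53.5% to 21.2% and 23.8% on 1104 to 1719 reads a library. The other 3 tested exons of Eif4g1 differed by -1.61 to 0.25 points and were not called. In the adhesion molecule L1cam, whose transcript level fell as well, the 12-nt exon went from 58.4% and 56.5% to 31.7% and 31.1%, and the 15-nt exon from 88.0% and 93.7% to 67.6% and 72.6%. The 12-nt exon of Agrn, a matrix protein, went from 41.4% and 43.5% to 23.6% and 15.7% (edgeR likelihood ratio test adjusted p = 0.00103). In motor and endocytosis genes, the 6-nt exon of Hook3 went from 81.2% and 85.5% to 51.3% and 55.1%, the 15-nt exon of Dctn1 from 63.6% and 62.5% to 36.8% and 31.1%, and the 6-nt exon of Pacsin2 from 47.1% and 50.4% to 19.4% and 16.6%. The exons of L1cam, Agrn, Hook3, Dctn1 and Pacsin2 were singled out after their values were seen.

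The 75 lower microexons lie in 71 genes that were tested, of which 1 rose and 2 fell (Agrn and L1cam), 4.23% against 2.89% of all genes, and the median log2 fold change of these hosts was -0.04. In a list of 65 tested genes known to host neural microexons, 3 fell and none rose (4.62%, against the same background), Ank3 (-0.76, edgeR adjusted p = 0.0243) beside L1cam and Nrcam. The 74 tested microexons of those genes had a median difference of -11.2 points, 95.9% of them lay below control, and 30 were called lower. The list was made with microexons in mind, so its direction is not independent of what the list selects.

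**Figure D5:**
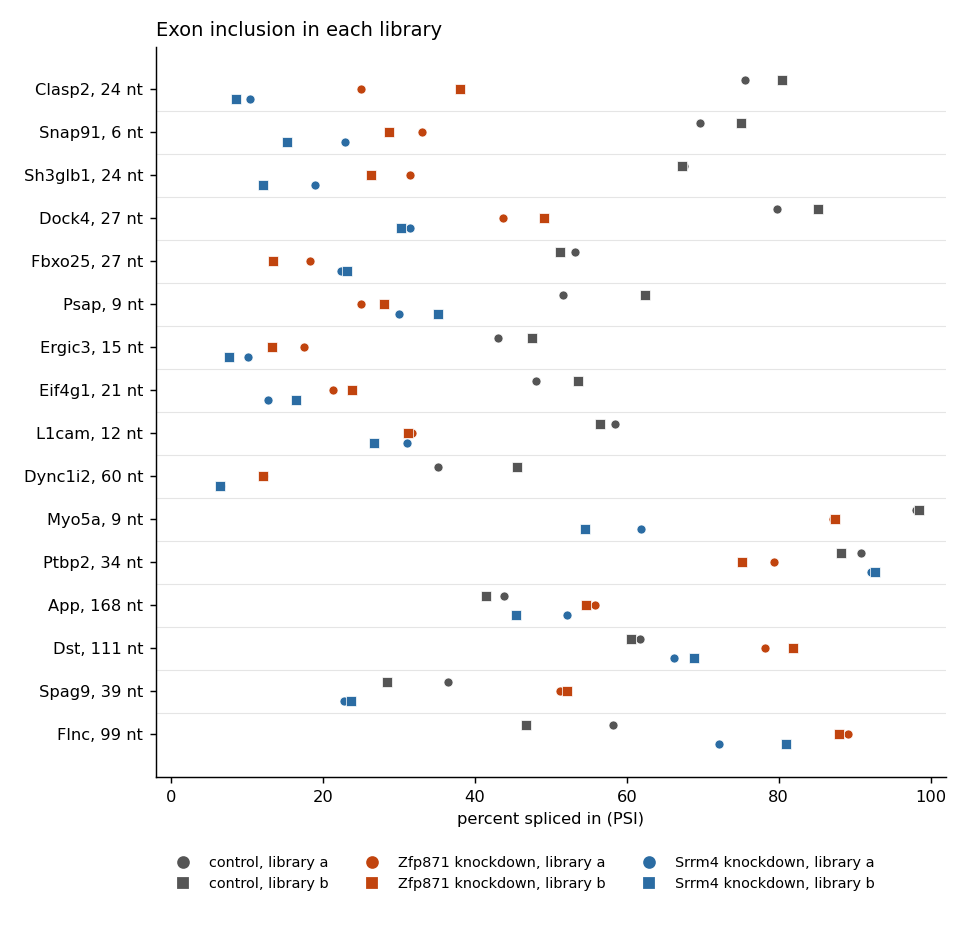
Percent spliced in (horizontal) of 16 exons in each of 6 libraries (circles library a, squares library b). In the Clasp2 row the Zfp871 knockdown (25% and 38%) lies between the control (75.5% and 80.5%) and the Srrm4 knockdown (10.4% and 8.48%), while in the Ptbp2 and Spag9 rows it stands apart from both.

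The same microexons were measured under Srrm4 knockdown. The knockdowns share the control libraries, so their values are set side by side and the test is the direct comparison. This test reuses the Zfp871 knockdown libraries by which exons were called against control. For exons called lower it therefore leans toward lower and is not independent of that call. The median PSI of the 510 microexons was 30.0% and 24.9% in the Srrm4 knockdown, and the mean was 42.1% and 41.4% there, 43.9% and 43.3% in the Zfp871 knockdown and 49.3% and 50.8% in the control. The direct comparison called no exon with the edgeR quasi-likelihood test (1080 at an unadjusted p under 0.05). With the likelihood ratio test it called 79 exons higher (0.390%) and 90 lower (0.444%) in the Zfp871 than in the Srrm4 knockdown, 0.834% of the tested exons in either direction. Of the 75 microexons called lower against control, the direct test called 17 higher than under Srrm4 knockdown and 1 lower. In 47 of the 75 both Srrm4 knockdown libraries lay below both Zfp871 knockdown libraries. The median direct difference of the 75 was 5.31 points. The direct test called 18 of the 91 longer ones lower and 9 higher.

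Microexons differed in how far each knockdown moved them. The 9-nt exon of the myosin motor Myo5a was at 98% and 98.5% in the control, 87.1% and 87.4% in the Zfp871 knockdown and 61.9% and 54.6% in the Srrm4 knockdown, a direct difference of 29.0 points (edgeR likelihood ratio test adjusted p = 9.94e-11). The 18-nt exon of the kinesin Kif1b was at 97.8% and 96.6%, 85.3% and 84.4%, and 59.1% and 62.1% in the same order (24.3 points, edgeR likelihood ratio test adjusted p = 1.75e-08). Both 15-nt exons of Vav2, an exchange factor for small GTPases, were higher than under Srrm4 knockdown by 26.6 and 34.3 points. In these 4 exons the Zfp871 knockdown libraries lay between the other groups. For other microexons the direct test made no call: L1cam 12 nt stood at 31.1% and 26.7% in the Srrm4 knockdown (2.56 points, edgeR likelihood ratio test adjusted p = 0.641), Psap at 30.1% and 35.2% (-6.09 points, edgeR likelihood ratio test adjusted p = 0.533) and Fbxo25 at 22.3% and 23.2% (-6.85 points, edgeR likelihood ratio test adjusted p = 0.157). A missed threshold does not show that the knockdowns act alike on these exons.

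Longer exons that moved were fewer for their number and went in both directions. Dync1i2, an intermediate chain of the dynein motor, had a 60-nt exon at 35.2% and 45.6% in the control and 12.2% and 12% in the knockdown (edgeR likelihood ratio test adjusted p = 1.96e-11). Some lower exons were not lower under Srrm4 knockdown, and those named here were singled out after their values were seen. The 34-nt exon of Ptbp2 (chr3:119427530-119427563 in mm9, minus strand), whose length 3 does not divide, went from 90.9% and 88.2% to 79.3% and 75.2%, against 92.1% and 92.7% in the Srrm4 knockdown (direct difference -15.1 points, edgeR likelihood ratio test adjusted p = 2.80e-07). The 51-nt exon of the kinesin light chain Klc1 went from 40.8% and 41.6% to 28.8% and 30.2%, against 48.4% and 45.6% (-17.5 points, edgeR likelihood ratio test adjusted p = 1.01e-09). The 42-nt exon of Kif1b went from 42.1% and 41.8% to 31.4% and 27%, against 42.2% and 40.9% (-12.4 points, edgeR likelihood ratio test adjusted p = 4.66e-04). The 148-nt exon of Tomm34, a cochaperone of mitochondrial import, went from 87.2% and 87.5% to 77.3% and 76.7%, against 88.5% and 86.6% (-10.6 points, edgeR likelihood ratio test adjusted p = 1.19e-09).

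The 19 exons called higher were all longer than 27 nt. Flnc, a filamin of muscle that crosslinks actin, had a 99-nt exon at 58.1% and 46.7% in the control and 89.2% and 87.9% in the knockdown, on 34 to 93 reads a library (edgeR likelihood ratio test adjusted p = 7.92e-05). The 39-nt exon of Spag9, a scaffold for JNK signalling, went from 36.4% and 28.5% to 51.2% and 52.1%. In the Srrm4 knockdown the Spag9 exon was on the other side of the control, at 22.7% and 23.7%, and the direct difference was 28.4 points (edgeR likelihood ratio test adjusted p = 1.47e-10). The 111-nt exon of Dst, a linker of the cytoskeleton, went from 61.8% and 60.6% to 78.3% and 81.9% (edgeR likelihood ratio test adjusted p = 2.43e-08). App, the amyloid precursor protein, had the 168-nt exon of its Kunitz inhibitor domain, which neurons mostly skip, at 43.8% and 41.5% in the control and 55.8% and 54.7% in the knockdown (edgeR likelihood ratio test adjusted p = 0.0135). The Spag9 exon was singled out after its values were seen. The exons of Ptbp2, Spag9 and Dst, which stood apart from both other groups, are shown in the same form as above.
Ptbp2 (34 nt, chr3:119427530-119427563, minus strand): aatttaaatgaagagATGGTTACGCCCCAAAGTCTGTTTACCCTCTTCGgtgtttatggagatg
Spag9 (39 nt, chr11:93974577-93974615, plus strand): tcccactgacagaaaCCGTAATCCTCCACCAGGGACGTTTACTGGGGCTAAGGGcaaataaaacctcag
Dst (111 nt, chr1:34360266-34360376, plus strand): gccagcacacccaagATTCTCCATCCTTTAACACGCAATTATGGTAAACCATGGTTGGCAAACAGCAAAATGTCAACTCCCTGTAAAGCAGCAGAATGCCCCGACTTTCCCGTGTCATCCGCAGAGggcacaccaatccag

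Retained introns and alternative splice sites gave few calls. Limma on logit PSI called 4 of 91766 introns (0.00436%), 3 of 28768 acceptor sites (0.0104%) and none of 20308 donor sites (0), where 1219 donor sites had an unadjusted p under 0.05. Carm1, an arginine methyltransferase, stood out by its read support. The PSI of its 463-nt intron event (chr9:21392030-21392492 in mm9) was 69.9% and 73.2% in the control and 36.4% and 37.4% in the knockdown (limma adjusted p = 0.0385). It was 61.5% and 61.2% in the Srrm4 knockdown. A 69-nt cassette exon of Carm1 lies within that interval, at chr9:21392295-21392363, so both events share reads. The exon went from 94.5% and 96.0% to 84.8% and 84.3% (edgeR likelihood ratio test adjusted p = 3.14e-08). Reads that join the ends of the interval are those that skip the exon. The intron PSI is therefore not a share of all transcripts, and less retention and more skipping cannot be told apart here. Retention of a 611-nt intron of the Polycomb gene Pcgf2 was 67% and 68% in the control, 35.7% and 36.3% in the knockdown and 40.3% and 42% in the Srrm4 knockdown, on 15 to 24 reads (limma adjusted p = 0.0283). The calls in Ypel4, Tox4, Hoxc9 and Gorasp1 rest on 10 to 33 reads a library, and the 2 in Gorasp1 are the complementary sites of 1 event. Among 3522 introns with a mean PSI of at least 10% the median difference from control was -1.88 points and 61.8% lay below control, while the medians of the libraries overlapped between the groups.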

How the data were processed

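Gene counts and log2 fold changes with p-values adjusted as FDR came as 1 deposited table made by the authors with edgeR, per the file headers and the submitters' processing notes, which name CASAVA 1.8 and the mouse build mm9. The read counts per gene are whole numbers with no normalization, as deposited. Inclusion in percent (PSI) and the reads behind it came from the authors' deposited vast-tools table in mm9, per the file headers. For the gene counts, the aligner was not given in the sources used here. Another 14 columns of per-library values were not used.

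Of 21553 genes with counts, 12378 passed filterByExpr and were fitted with edgeR 4.0.16 (R 4.3.3; TMM, quasi-likelihood test, 1 fit of the 6 libraries); 1114 entries had no counts. The SE is the log2 fold change divided by the root of F. Cassette exons had at least 10 reads in every library and a PSI of 2% to 98% in at least 1; inclusion and exclusion reads were fitted as paired classes in edgeR, and a call also needed 10 points. PSI was computed from these reads, as 100 times the inclusion reads over their sum, for all event types. Introns and splice sites were tested with limma 3.58.1 on logit PSI (offset 1). Alternatives included DESeq2 1.42.0, the likelihood ratio test, other filters and leaving out each library. The tests were tried on simulated data first. Read numbers set the precision; molecular identifiers are not recorded.

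Named genes were the 15 largest called changes each way at a mean of at least 1 CPM, all called list members and up to 2 members nearest to the threshold in lists with no call; named exons were those with the smallest p at 10 points or more, up to 10 each way, and exons of Clasp2, Vav2, Snap91, Eif4g1 and Kif1b. The members and lists were chosen with earlier results of these data known. A few genes and exons are not reported here. The letters a and b are not tied to replicate numbers in the labels, so they were not used as pairs.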

Additional observations from a re-analysis of the deposited data

How the results depend on the processing

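The count of 358 genes called against control moved with the test. DESeq2 called 1350 genes (59.6% of them lower, against 74% with edgeR's quasi-likelihood test), the edgeR likelihood ratio test 905 (66.3% lower) and a fit of only the 4 libraries 178. Other size factors (364), no filter (462) and a filter of 1 CPM in every library (398) stayed within 1.5 times. Leaving out 1 library gave 0 to 29 genes. The direct comparison with the Srrm4 knockdown (1374 genes) gave 2430 with DESeq2 and 0 to 530 with 1 library left out. DESeq2 shared 355 and the likelihood ratio test all 358 of the calls.

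The column letters were also tested as a replicate block. Same-lettered libraries deviated alike from their group means in all pairs of groups. The deviations correlated at r = 0.662 between control and Zfp871 knockdown, 0.749 between control and Srrm4 knockdown and 0.637 between the knockdowns. With only 2 letters and no label for them, this does not show a pairing by design. The main fits have no block, so a difference shared by a letter counts there as spread. With the block 3854 genes were called (55.6% lower), all 358 among them, with 22 of the 26 named genes that had no call (Srrm4 included) and 80 of the 347 members of lists with none, 5191 in the direct comparison, 1 exon by the quasi-likelihood test, 308 by the likelihood ratio test, and 2 introns or splice sites.

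Exon calls of the quasi-likelihood test (0) became 185 with the likelihood ratio test, and 169 in the direct comparison; 20 reads, 15 points, no minimum difference, 4 libraries, limma on logit PSI and each library left out gave 0. With the likelihood ratio test, leaving out 1 library gave 99 to 178 exons, and 44 to 70 lower microexons with none higher; these leave-one-out fits and the block with that test were chosen after seeing the data. The microexon median of -3.03 points went from -3.89 to -2.66. Introns and splice sites (7) fell to 2 at 20 reads and were 43 to 91 with 1 library left out. Cd74, an immune marker with no call, turned from 0.35 to -0.18 without control b and to -0.23 without Zfp871 knockdown a, and was 1.23 without control a. The cause of these shifts was not tested.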
